A study of Danio rerio with 8 samples.

Results

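The comparison of older with younger adult fish corneas used all 8 of the 8 libraries, divided by the age that the labels give. The older group held 4 libraries, from fish of 180 days (number 1) and 183 days (number 4), and the younger group held 4 libraries, from fish of 145 days (number 2) and 148 days (number 3). Every fish was wild type of the AB background. Each number stood for 1 control and 1 abraded library, so that both age groups held 2 controls, whose fish had been anaesthetised and laid on a sponge, and 2 abraded libraries, whose fish had lost central epithelium from both corneas 1.5 h before collection. A library pooled 6 corneas of 3 fish. The study put fish of 1 age together in 1 tank the day before the experiment. It took the control and the abraded fish of a number from the same tank. An age group was therefore made of 2 tanks, and age cannot be told apart from tank or hatching cohort. The sex and genotype of the pooled fish are not given in the labels. The abrasion itself entered only as a covariate and is not described.

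The cornea is a stratified epithelium on a collagen-rich stroma, which keratocytes build and maintain, with a single layer of endothelium at its back. Transparency rests on thin fibrils of type I collagen with type V in them, spaced by small leucine-rich proteoglycans such as keratocan, lumican and decorin. Zebrafish go on growing as adults, and the stroma and the epithelium have to be enlarged and renewed with the rest of the eye. Resident leukocytes, among them cells that present antigen on MHC class II, are known from the limbus and the stroma of vertebrate corneas.

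The library totals lay between 39472162 and 44250662 counts, with 40714985 to 41501545 in the younger group, so that depth did not separate the ages. Values per gene are CPM, counts per 1000000 library counts, after TMM normalization. Of 32520 genes in the table, 20018 had enough counts to be tested. On the 500 most variable genes, the first principal component (30.2% of the variance) placed the 4 younger libraries between 14.88 and 25.94 and the 4 older libraries between -26.34 and -11.19. Older abraded library 1, which the study left out of its own comparison, stood apart on the third component, at -31.77 against -6.05 to 11.66 for the others, and its 50 most abundant genes took 26.4% of the counts against 29.4% to 30.8% elsewhere. Where leaving it out changed the call of a gene described, or a called difference by over 1.5 times, both values are given.

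To ask which genes differed with age at the same condition, each gene was fitted with condition and age group in edgeR's quasi-likelihood test, with Benjamini-Hochberg adjustment over the 20018 genes at an adjusted p of 0.05. In this test 17 genes rose in the older group (0.0849% of the genes tested) and 8 fell (0.04%), 25 in either direction (0.125%), each by more than 2-fold. For all 25 genes the 4 older libraries lay wholly above or wholly below the 4 younger ones. Among all genes tested, this was the case upward for 403 (2.01%) and downward for 374 (1.87%). An unadjusted p under 0.05 was reached upward by 686 genes (3.43%) and downward by 742 (3.71%), and the difference was above 0 for 48.1% and below 0 for 51.9% of the genes, with a median of -0.013 on the log2 scale. With no overlap, the direction of each of the 25 is by construction the same in both conditions and in both pairs of ages. With the tank number as a random block in limma voom, 7 of the 25 remained past the threshold, namely mhc2dgb, CCDC39, si:dkey-238k10.1, fgfbp2a, ccl27a, ECRG4 and a gene with no symbol, against 17 of the 25 in voom without the block. Leaving out each library in turn gave between 8 rises (without younger abraded library 3) and 28 (without older abraded library 1), and between 3 falls (without older abraded library 4) and 23 (without older abraded library 1), with 8 of the 25 genes past the threshold in every such fit. The other 17 missed it in at least 1 fit, with highest adjusted p-values from 0.0513 to 0.277. Among them, EZR (ENSDARG00000020944) and si:dkey-33c14.2 passed in 3 of the 8 fits, and col28a2a, fbxo44.9 and si:ch211-209l18.4 in 2. Only 1 of these fits called si:dkey-27n6.4, si:zfos-2131b9.2, si:ch211-226h7.8, fbxo44.10 or si:ch211-127b6.2. On counts summed by tank, which leaves 2 values in each age group, 12 of the 25 were called, and of the 7 genes past the threshold with the block ccl27a (adjusted p = 0.0735) and ECRG4 (0.071) were not. Of the 25, 23 have a symbol in the reference tables, and several of these symbols belong to more than 1 gene copy.

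The MHC class II genes mhc2dga and mhc2dgb, which code for chains of the receptors that present peptides to CD4 T cells, rose with adjusted p-values of 8.66e-07 and 0.000567. The gene mhc2dga was at 0 and 0.0248 CPM in the younger controls, 0 and 0 in the younger abraded libraries, 91.3 and 42.2 in the older controls, and 61.5 and 33.1 in the older abraded libraries. It was present in every older library and almost absent from every younger one, where 1 count stood against 9481 in the older group, a ratio of 9270 with an exact 95% counting interval from 1660 to 366000. In voom its adjusted p was 0.0965 with the block and 0.0572 without it, above the threshold in both. The gene mhc2dgb was at 2.11 and 0.919 CPM in the younger controls, 2.06 and 0.614 in the younger abraded libraries, 53.1 and 23.4 in the older controls, and 57.4 and 38.0 in the older abraded libraries. Its groups did not overlap, and the log2 difference was 4.90 ± 0.42 (adjusted p = 0.00304 with the block). In the RefSeq gene order of GRCz12tu, mhc2dga and mhc2dgb are next to each other, and they were the only adjacent pair among the 10 called genes whose symbol has a single place there.

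The rest of the class II list lay on both sides. Of 25 members that were counted, 21 were tested, 2 rose (mhc2dga and mhc2dgb), none fell, 4 lay wholly above the younger group (2.01% of all genes did) and 1 wholly below (1.87%). DESeq2's Wald test called 4 higher (0.514% of its genes) and none lower (0.446% of its genes), and voom called 1, with or without the block. The median log2 difference was 0.14, against -0.013 over all genes, and ranged from 0.07 without younger control library 3 to 0.34 without younger control library 2, being -0.14 in the controls. The members given next were chosen after their values were seen. The gene mhc2bl had 0 CPM in all 4 younger libraries and 0.224, 0.511, 1.06 and 0.689 CPM in the older ones (adjusted p = 0.0863, and 4.07e-05 in DESeq2), and mhc2d8.37a2 lay at 0.0915, 0, 0.196 and 0.102 CPM in the younger and 1.12, 0.372, 1.3 and 1.59 CPM in the older libraries (adjusted p = 0.116, and 0.000226 in DESeq2). Neither passed with the block (0.316 and 0.513). The gene mhc2d8.46a lay the other way, at 5.35, 1.54, 2.52 and 2.38 CPM in the younger and 0.249, 0.743, 1.37 and 0 CPM in the older libraries (log2 difference -2.30 ± 0.79, adjusted p = 0.503, and -3.59 and 0.146 without older abraded library 1). The more abundant mhc2daa (248 ± 91.8 CPM younger, 222 ± 39.8 older, mean ± SD, n = 4) overlapped between the groups, as did the invariant chain genes cd74a (648 ± 144.6 and 583 ± 134 CPM) and cd74b (380.1 ± 94.6 and 380.4 ± 13.3 CPM), which guide class II chains to the endosome. The class II transactivator gene ciita overlapped too (2.44 ± 0.620 and 1.94 ± 0.678 CPM). The 44 tested genes of the macrophage and dendritic cell list had a median of -0.09 (from -0.16 without younger control library 3 to 0.01 without younger control library 2). Of these genes 17 were above 0 (48.1% of all genes) and 27 below. The copy of MFAP4 given below was the only 1 called in edgeR, where 0.0849% of all genes rose. DESeq2 called 2 higher (0.514% of its genes) and 1 lower (0.446%). The summed level of this list was 3900 to 4619 CPM in the younger and 4551 to 5592 CPM in the older libraries. Near-identical class II copies share reads, and how the counting divided these is uncertain.

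**Figure D1:**
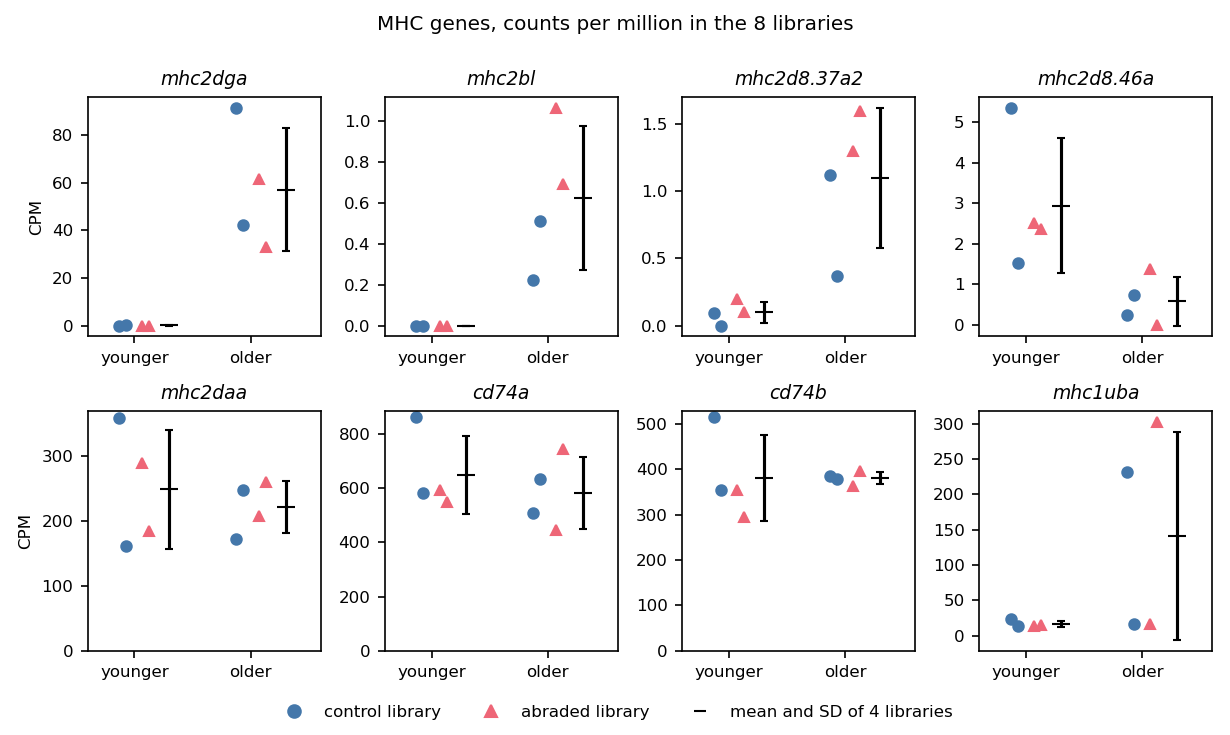
MHC genes by age group. Each panel shows CPM (vertical axis) of 1 gene in the 4 younger and the 4 older libraries, circles for controls and triangles for abraded corneas, with the mean and SD of 4 libraries beside them. The genes mhc2dga and mhc2bl have younger libraries at or near 0, the older mhc2d8.46a libraries lie below the younger ones, mhc2daa, cd74a and cd74b overlap, and mhc1uba is high in 2 older libraries of different tanks.

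For a class I gene, single libraries stood apart from the other library of their tank. The gene mhc1uba, a classical class I chain, was at 23.9 and 14 CPM in the younger controls, 14.1 and 15.3 in the younger abraded libraries, 231 and 16.4 in the older controls, and 16.7 and 302 in the older abraded libraries. Older control library 1 and older abraded library 4 were high, while the other library of each of these tanks was near the level of the younger group, so the groups overlapped (adjusted p = 0.293). Classical MHC genes of zebrafish are known to differ in gene content between fish, and each library drew on 3 fish only. The genotypes were not tested.

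Of the genes that rose, ccl27a and fgfbp2a code for secreted proteins. The gene ccl27a codes for a chemokine whose mammalian counterpart is made by skin keratinocytes and draws in T cells. It was at 6.68 and 6.43 CPM in the younger controls, 8.43 and 10.304 in the younger abraded libraries, 23.3 and 17.9 in the older controls, and 29.0 and 18.8 in the older abraded libraries. All older libraries exceeded all younger ones, with means of 22.2 ± 5.1 against 7.96 ± 1.80 CPM (SD, n = 4) and a log2 difference of 1.5 ± 0.19 (adjusted p = 0.0114). The paralog ccl27b, chosen after its values were seen, overlapped between the groups (44.3 ± 7.56 CPM younger, 57.5 ± 14.1 older). The gene fgfbp2a codes for a secreted protein of a family that binds fibroblast growth factors in the matrix, and was at 9.06 and 15.9 CPM in the younger controls, 11 and 8.23 in the younger abraded libraries, 43.45 and 43.5 in the older controls, and 73.0 and 44.84 in the older abraded libraries. Its log2 difference was 2.2 ± 0.25 (adjusted p = 0.0045). The paralog fgfbp2b lay the opposite way, at 3.66, 3.33, 2.08 and 5.65 CPM in the younger and 0.472, 1.3, 0.567 and 1.05 CPM in the older libraries, with no overlap and an adjusted p of 0.0955.

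**Figure D2:**
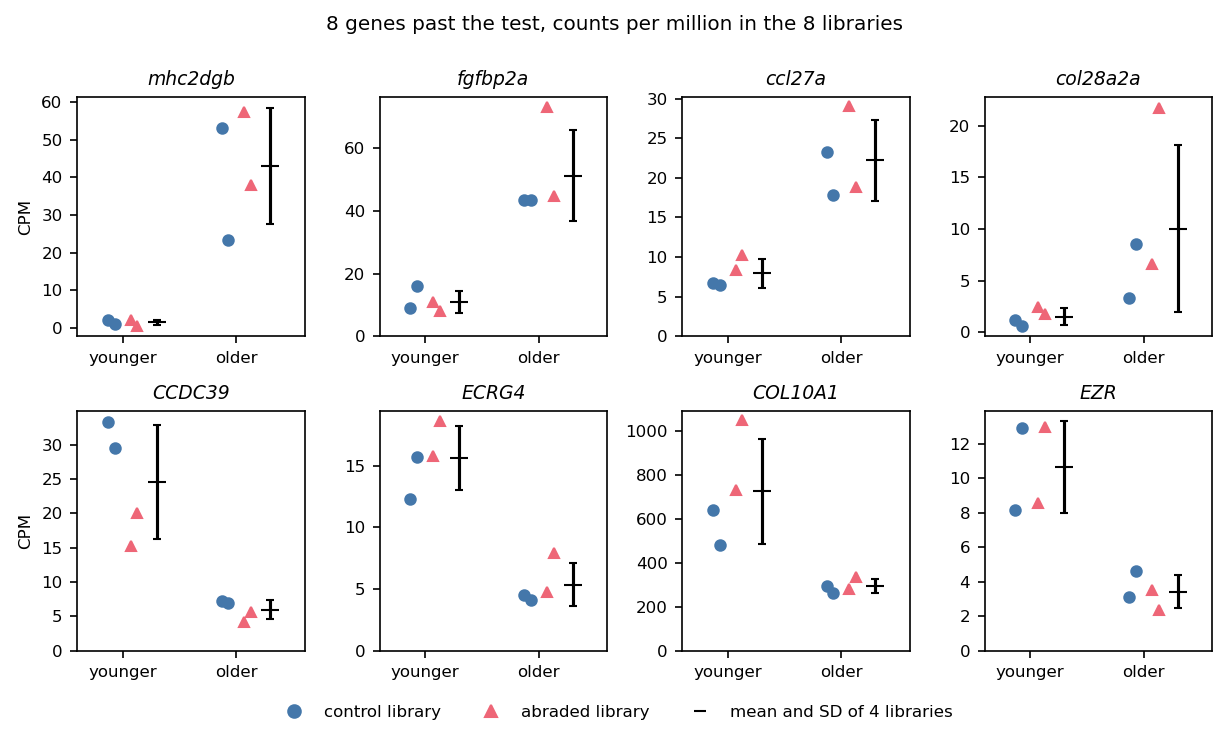
Genes past the test. CPM (vertical axis) in the 4 younger and the 4 older libraries for 4 genes that rose (upper row) and 4 that fell (lower row), circles for controls, triangles for abraded corneas, mean and SD of 4 libraries at the side. In every panel the 4 older libraries lie on one side of the 4 younger ones.

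Matrix genes moved in both directions. The gene col28a2a, a type XXVIII collagen, rose with a log2 difference of 2.71 ± 0.41 (adjusted p = 0.032, and in voom 0.23 with the block and 0.137 without it). It was at 1.19 and 0.646 CPM in the younger controls, 2.45 and 1.79 in the younger abraded libraries, 3.31 and 8.50 in the older controls, and 6.57 and 21.7 in the older abraded libraries, the highest value being that of older abraded library 4. Its paralogs lay the other way or overlapped: col28a1b was at 3.93 ± 1.03 CPM in the younger and 2.37 ± 0.455 CPM in the older libraries (adjusted p = 0.551) and col28a2b at 2.08 ± 0.295 and 1.61 ± 0.987 CPM. A copy of MFAP4 (ENSDARG00000038681), a microfibril-associated glycoprotein gene of a family that marks macrophages in zebrafish, rose from 1.18 ± 0.594 to 4.53 ± 1.13 CPM, with a log2 difference of 2.0 ± 0.27 (adjusted p = 0.0146, 0.0745 with the block). Other copies of MFAP4 did not pass: ENSDARG00000038683 had a log2 difference of 1.19 ± 0.34 and ENSDARG00000090783 one of -0.93 ± 0.24, both with overlap.

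A copy of COL10A1 (ENSDARG00000101535) fell. Type X collagen forms networks and is best known from hypertrophic cartilage. The gene was at 640.3 and 481 CPM in the younger controls, 730.4 and 1049 in the younger abraded libraries, 292 and 261 in the older controls, and 282 and 336 in the older abraded libraries. Its log2 difference was -1.27 ± 0.17 (adjusted p = 0.0146, 0.0524 with the block), and the highest older library stayed below the lowest younger one. The second copy (ENSDARG00000054753) lay below as well, at 275, 352, 429 and 509.7 CPM in the younger and 261, 222, 264 and 175 CPM in the older libraries, and did not pass (adjusted p = 0.268).

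CCDC39 fell, whose protein is, with that of ccdc40, the ruler along the axonemes of motile cilia. It was at 33.4 and 29.5 CPM in the younger controls, 15.2 and 20.1 in the younger abraded libraries, 7.26 and 6.92 in the older controls, and 4.11 and 5.63 in the older abraded libraries. The means were 5.98 ± 1.43 CPM in the older and 24.6 ± 8.36 CPM in the younger group (SD, n = 4), and the log2 difference was -2.0 ± 0.18 (adjusted p = 0.000647). Its partner ccdc40, chosen after its values were seen, overlapped and had a log2 difference of -0.57 ± 0.18 (adjusted p = 0.426). A copy of ECRG4 (ENSDARG00000056087), which codes for a secreted peptide precursor also called augurin, was at 12.3 and 15.7 CPM in the younger controls, 15.8 and 18.7 in the younger abraded libraries, 4.53 and 4.11 in the older controls, and 4.79 and 7.92 in the older abraded libraries. It fell by 1.57 on the log2 scale (SE 0.20, adjusted p = 0.012), and its low-level second copy overlapped. A copy of EZR (ENSDARG00000020944), a gene for ezrin, which ties the actin cortex to the plasma membrane, was at 10.7 ± 2.66 CPM in the younger and 3.41 ± 0.95 CPM in the older libraries (log2 difference -1.66 ± 0.26, adjusted p = 0.032, 0.0965 with the block). The second EZR copy, at 1325 ± 319.7 and 1356 ± 276 CPM, overlapped.

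Members of clustered F-box genes fell while their neighbours by name did not. The gene fbxo44.10 was at 7.14 and 5.39 CPM in the younger controls, 9.40 and 8.72 in the younger abraded libraries, 0.547 and 0.255 in the older controls, and 2.64 and 0.452 in the older abraded libraries, a log2 difference of -3.18 ± 0.50 (adjusted p = 0.032, 0.0524 with the block). Without older abraded library 1, the highest of the older ones, these were -4.10 and 0.000341. No other fit with a library left out called this gene, with adjusted p-values up to 0.125. The gene fbxo44.9 lay at 18.1, 12.2, 17.2 and 17.8 CPM in the younger and 5.47, 5.78, 8.53 and 4.75 CPM in the older libraries (log2 difference -1.41 ± 0.21, adjusted p = 0.0304, 0.0745 with the block). By contrast fbxo44.8 was level (30.2 ± 4.64 CPM younger, 30.4 ± 4.96 older) and fbxo44.7 slightly higher (17.2 ± 1.94 and 22 ± 2.51 CPM). F-box proteins choose substrates for ubiquitin ligases. The gene si:zfos-2131b9.2 fell as well (log2 difference -1.57 ± 0.24, adjusted p = 0.032, 0.0965 with the block), as did a gene with no symbol, ENSDARG00000099775, at 12.4, 13.3, 11.1 and 14.7 CPM in the younger and 3.06, 2.6, 3.78 and 2.38 CPM in the older libraries (log2 difference -2.12 ± 0.21, adjusted p = 0.00113).

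A copy of CRYAB (ENSDARG00000101380), a small heat shock protein gene of the lens crystallin family, rose at a low level, with 0.995, 1.32, 1.04 and 1.16 CPM in the older libraries and no count in any younger one, which was at least 61.8-fold higher with a floor of 3 counts over the group, the exact 95% counting interval of the ratio beginning at 49.9 (adjusted p = 0.0146, 0.0965 with the block). Of 14 lens genes tested, this was the only one called, the list's median was 0.003 (from -0.29 without older control library 4 to 0.14 without younger abraded library 2), and its summed level was 248 to 338 CPM in the younger and 248 to 325 CPM in the older libraries.

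Genes known only by clone names accounted for 8 of the 17 rises. The gene si:dkey-238k10.1 was at 1.81 and 1.27 CPM in the younger controls, 1.52 and 1.33 in the younger abraded libraries, 8.53 and 12.8 in the older controls, and 10.296 and 22.1 in the older abraded libraries, a log2 difference of 3.15 ± 0.30 (adjusted p = 0.0011). The gene ENSDARG00000092578, which has a clone name too, lay at 0.686, 0.671, 0.490 and 0.153 CPM in the younger and 6.57, 5.94, 10.18 and 5.06 CPM in the older libraries (log2 difference 3.82 ± 0.41, adjusted p = 0.00242, 0.0583 with the block). For si:dkey-93m18.3 the log2 difference was 2.85 ± 0.38 (adjusted p = 0.0146, and in voom 0.156 with the block and 0.0585 without it). The smallest of them was that of si:ch211-209l18.4, at 24.6, 26.0, 21.3 and 18 CPM in the younger and 39.7, 46.5, 58.8 and 48.4 CPM in the older libraries (log2 difference 1.11 ± 0.18, adjusted p = 0.0363, 0.0965 with the block). The differences of si:dkey-27n6.4 (2.21 ± 0.34), si:dkey-33c14.2 (1.93 ± 0.29), si:ch211-226h7.8 (2.90 ± 0.45) and si:ch211-127b6.2 (3.03 ± 0.50) had adjusted p-values from 0.0297 to 0.0486, and without older abraded library 1 those of si:dkey-27n6.4 and si:ch211-127b6.2 were 0.0516 and 0.0578. None of these 4 passed with the block (0.0965, 0.124, 0.308 and 0.567). In voom without it their adjusted p-values were 0.036, 0.0626, 0.157 and 0.28. A gene with no symbol, ENSDARG00000101956, rose as well and was at 0, 0.0497, 0.0245 and 0.0256 CPM in the younger and 6.47, 19.6, 10.23 and 10.27 CPM in the older libraries (adjusted p = 2.56e-05, and in voom 0.293 with the block and 0.1365 without it). It was near absent from the younger corneas, with 4 counts in all against 1971 in the older group.

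Collagens were lower in the older corneas across most of the family. Of 57 collagen genes that were counted, 54 were tested, 49 had a difference below 0 (51.9% of all genes did), and in 21 all 4 older libraries lay below all 4 younger ones (1.87% of all genes). The median log2 difference was -0.62, being -0.42 in the controls and -0.75 in the abraded libraries. Only 1 collagen, the COL10A1 copy above, fell in the test, and col28a2a was the only one that rose. DESeq2 called 15 lower (0.446% of its genes) and 1 higher (0.514%), while voom called 1 lower, and none with the tank block. The collagen genes shown next were chosen after their values were seen.

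The fibril-forming collagens lay lower together. All 15 tested genes of types I, II, V, XI, XXIV and XXVII had differences below 0, from -1.14 to -0.36 with a median of -0.92, and 11 of the 15 did not overlap. The type I genes were the most abundant. The gene col1a1a was at 6189 and 6184 CPM in the younger controls, 7189 and 8004 in the younger abraded libraries, 4062 and 3467 in the older controls, and 2189 and 3879 in the older abraded libraries. COL1A1 was at 4996 and 5492 CPM in the younger controls, 5906 and 6877 in the younger abraded libraries, 3394 and 3021 in the older controls, and 1646 and 3109 in the older abraded libraries, and COL1A2 at 4329 and 4726 CPM in the younger controls, 5409 and 5936 in the younger abraded libraries, 2784 and 2488 in the older controls, and 1323 and 2699 in the older abraded libraries. The 4 older libraries lay below the 4 younger ones for all 3 chains, and older abraded library 1 was the lowest. The log2 differences were -1.02 ± 0.18, -1.07 ± 0.20 and -1.14 ± 0.21, with adjusted p-values of 0.0735, 0.0878 and 0.0863 in the fit of all 8 libraries. Without older abraded library 1 they were -0.81, -0.84 and -0.89, and the adjusted p-values were 0.00824, 0.0106 and 0.00593, all past the threshold. No other fit with a library left out called any of the 3, with adjusted p-values up to 0.21, 0.228 and 0.221.

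Type V and XI collagens, which set the width of type I and type II fibrils, lay lower in the same libraries. COL5A1 was at 593, 643, 648 and 662 CPM in the younger and 438, 451, 404 and 383 CPM in the older libraries (log2 difference -0.60 ± 0.12, adjusted p = 0.101, and 0.0895 without older abraded library 1). COL11A1 was at 371, 388, 452 and 442 CPM in the younger and 205, 219, 117 and 226 CPM in the older libraries (log2 difference -1.11 ± 0.20, adjusted p = 0.0711, and 0.00824 without that library). The gene col11a1b showed little spread within groups, at 250.3, 264, 257 and 283 CPM against 142, 176, 152 and 166 CPM (log2 difference -0.73 ± 0.13, adjusted p = 0.0674). The type II copy ENSDARG00000011407 (COL2A1) was at 1104, 1172, 1245 and 1395 CPM in the younger and 705, 741, 328 and 839 CPM in the older libraries (adjusted p = 0.268, and 0.03 without older abraded library 1), and col9a1b, whose product sits on type II fibrils, at 49.8, 76.5, 94.5 and 79.2 and 29.2, 26.8, 12.7 and 37.7 CPM (adjusted p = 0.11, and 0.0171 without it). COL11A1, this COL2A1 copy and col9a1b passed in no other fit with a library left out (adjusted p up to 0.21, 0.596 and 0.266).

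Other collagen classes differed less. The 6 basement membrane genes of type IV had a median of -0.18, and none of them separated the groups. Of 11 fibril-associated genes 10 were below 0, with a median of -0.64 and 2 without overlap, while COL14A1 (ENSDARG00000005762) lay above 0 with overlap (0.71 ± 0.40) and its paralog col14a1b below it (-0.64 ± 0.40). COL12A1 (ENSDARG00000078322), for a fibril-associated collagen of the stroma, and COL8A2, for a network collagen of Descemet's membrane, overlapped, at 228 ± 54.2 and 192 ± 31.9 CPM and at 178 ± 35.7 and 150.4 ± 35.3 CPM. The 5 type VI genes were all below 0 (median -0.47), 3 of them without overlap, COL6A2 among them (527, 601, 587 and 603 CPM against 346, 467, 396 and 467 CPM). The hemidesmosome collagen gene of the epithelium, col17a1a, was lower in all 4 older libraries (younger 999, 662, 778 and 604 CPM against 473, 542, 308 and 499 CPM, adjusted p = 0.226), whereas its paralog col17a1b overlapped (2001 ± 341 and 1809.9 ± 628 CPM).

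**Figure D3:**
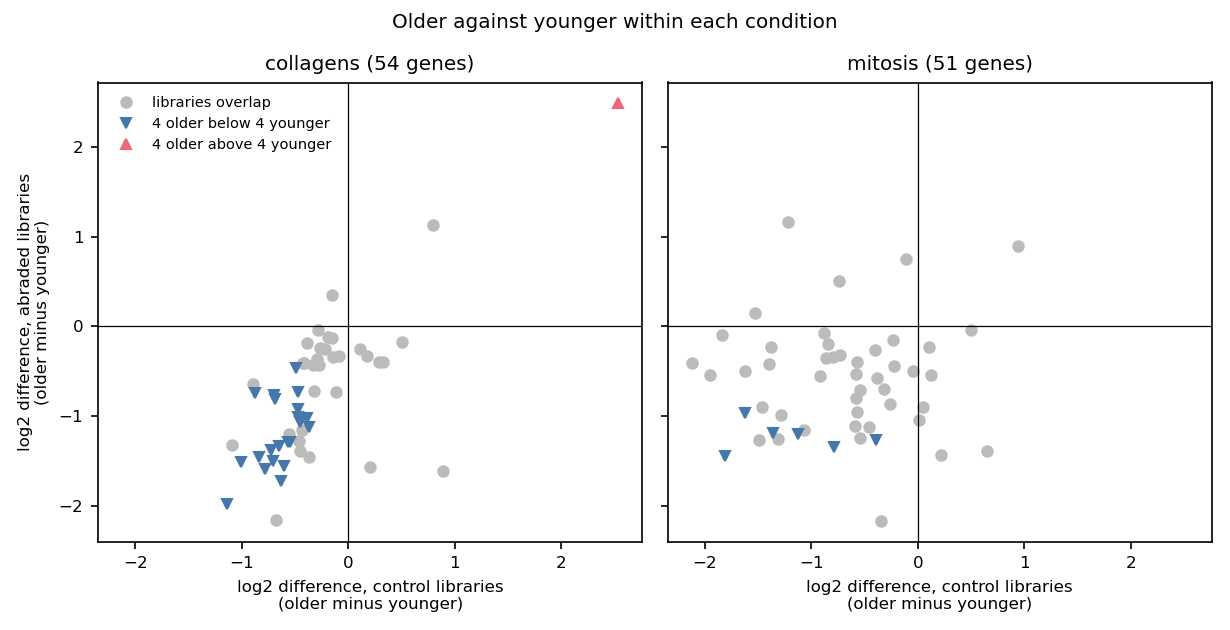
Collagen and mitosis genes within each condition. Each point is a gene, placed by its log2 difference of older minus younger in the controls (horizontal) and in the abraded libraries (vertical), with downward triangles where the 4 older libraries lay below the 4 younger ones and upward triangles where they lay above. Most collagens lie below 0 on both axes, with col28a2a and COL14A1 (ENSDARG00000005762) above 0 on both. The mitosis genes without overlap lie below 0 on both, which their lack of overlap fixes.

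The share of older abraded library 1 in the collagen result was measured. It was the lowest older library for 14 of the 21 collagens without overlap. The median of the 54 genes was -0.41 without it, and the other fits with a library left out gave medians down to -0.72, without older abraded library 4. In the fit without it 7 collagens were called lower and 1, col28a2a, higher, against 23 falls and 28 rises over all genes in that fit. The median was -0.74 between 180 and 145 days, the pair of ages that includes it, and -0.37 between 183 and 148 days.

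The list of keratocyte and corneal stroma genes lay on both sides. Of 39 tested, 16 were above and 23 below 0, 4 lay wholly above the younger group (2.01% of all genes) and 8 wholly below (1.87%), with a median of -0.14. The copy of MFAP4 above was the only one called in edgeR. An unadjusted p under 0.05 was reached upward by 5 (3.43% of all genes) and downward by 10 (3.71%). DESeq2 called 2 higher (0.514% of its genes) and 7 lower (0.446%), and with the tank block none was called. Its summed level was 25891 to 29131 CPM in the younger and 15344 to 20266 CPM in the older libraries. The list holds 4 collagens given above, all wholly below and all called lower by DESeq2. Without them 4 genes lay wholly above and 4 wholly below, and DESeq2 called 2 higher and 3 lower. The median was then -0.10, and the summed level 7653 to 9784 CPM in the younger and 8678 to 10838 CPM in the older libraries. The 2 called higher were copies of MFAP4 (ENSDARG00000038681 and ENSDARG00000038683), and another copy (ENSDARG00000090783) was among those called lower. As given above, the MFAP4 family marks macrophages in zebrafish, so these calls are not particular to keratocytes. The proteoglycan genes shown next were chosen after their values were seen. Keratocan (KERA), lumican (LUM) and decorin (DCN) are the defining products of keratocytes. KERA was at 181, 170.0, 164 and 166 CPM in the younger and 140.2, 147.97, 179.7 and 149 CPM in the older libraries. LUM was at 207, 207, 209 and 213 and 167, 203, 281 and 215 CPM, and DCN at 1531, 1740.1, 1462 and 1622 and 1342, 1789, 1539 and 1728 CPM in the same order. All 3 overlapped, with log2 differences of -0.14 ± 0.13, 0.04 ± 0.15 and 0.01 ± 0.13. The 95% intervals of these differences were -0.43 to 0.14, -0.28 to 0.36 and -0.27 to 0.29, where that of col1a1a was -1.42 to -0.62. These intervals take the 8 libraries as replicates and leave out the tank. In voom with the tank block, col1a1a had an adjusted p of 0.168. Copies of biglycan (BGN, ENSDARG00000002945) and osteoglycin (OGN, ENSDARG00000044132) lay lower without overlap, BGN at 123, 121, 131 and 129 CPM against 70.2, 80.5, 90.6 and 98.9 CPM (log2 difference -0.57 ± 0.13, adjusted p = 0.163) and OGN at 15.7 ± 4.21 CPM against 8.96 ± 2.15 CPM (log2 difference -0.80 ± 0.17, adjusted p = 0.135). The second copies of both overlapped. The gene ptgdsb.2, for a prostaglandin D synthase and lipid carrier that is abundant in corneal stroma, was lowest in the younger group, all 4 older libraries lying above it (younger 2328, 1962, 1999 and 1503 CPM against 2349, 2769.5, 2448 and 2573 CPM, adjusted p = 0.511). In bulk samples a smaller number of cells of a type and less RNA per cell cannot be told apart.

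**Figure D4:**
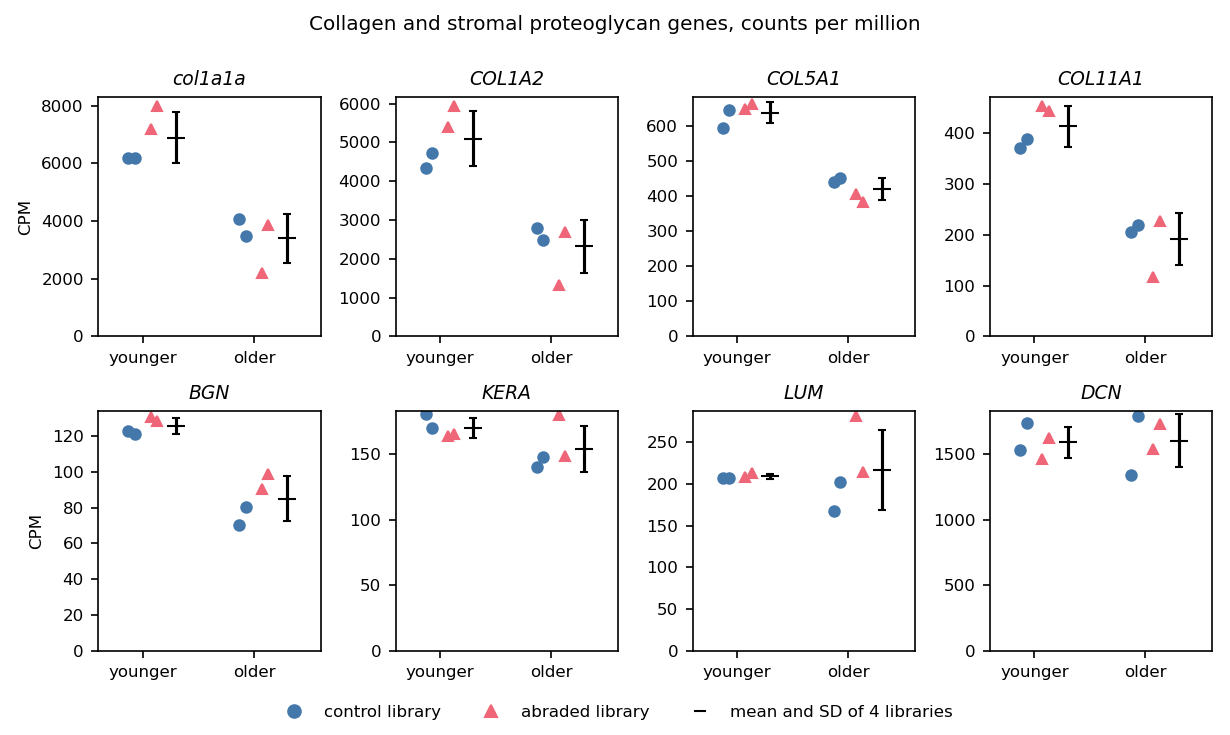
Collagens and proteoglycans of the stroma. CPM (vertical axis from 0) in the 4 younger and the 4 older libraries, circles for controls, triangles for abraded corneas, mean and SD of 4 libraries at the side. The type I, V and XI collagen genes and BGN separate the groups, while KERA, LUM and DCN overlap.

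Genes of cartilage were checked because types II, IX, X and XI are also cartilage collagens. Of 15 tested genes of a cartilage list that was added after the data had been seen, 11 were below 0 (51.9% of all genes). None was called by edgeR or DESeq2 and none separated the groups, with 1 at an unadjusted p under 0.05 downward (3.71% of all genes). The median was -0.35 (-0.19 without younger abraded library 3). The summed level was 644 to 820 CPM in the younger and 612 to 687 CPM in the older libraries. The cartilage markers acana (15.2 ± 3.91 and 15.9 ± 4.42 CPM), MATN1 (38.3 ± 6.15 and 31.6 ± 11.8 CPM), hapln1a (321 ± 42.6 and 318 ± 18.9 CPM) and cnmd (68.1 ± 9.18 and 51.2 ± 21.6 CPM) all overlapped. Their part in the collagen differences was not tested.

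Matricellular genes, whose secreted products modulate the contact of cells with matrix, lay mostly below 0. Of 57 tested, 45 were below 0 (51.9% of all genes), 7 lay wholly below the younger group (1.87%), and none was called in edgeR, with 13 at an unadjusted p under 0.05 downward (3.71%) and 2 upward (3.43%). DESeq2 called 3 lower (0.446%), and voom none, with or without the tank block. The median was -0.13, and it ranged from -0.29 without older abraded library 4 to -0.04 without older abraded library 1. SPARC, which binds collagen and aids its assembly, was at 1922, 2085, 2328 and 2329 CPM in the younger and 1777, 1677, 1632 and 1532 CPM in the older libraries (log2 difference -0.39 ± 0.12, adjusted p = 0.395). The more abundant POSTN copy (ENSDARG00000104267), for periostin, was at 2478, 2281, 2405 and 2049 and 1815, 2030.0, 1481 and 1675 CPM (log2 difference -0.40 ± 0.12, adjusted p = 0.369). The gene spp1, for osteopontin, was at 118, 149, 160.1 and 255 and 57.0, 107, 91.7 and 90.5 CPM (log2 difference -0.95 ± 0.22, adjusted p = 0.188). LOXL2, for an enzyme that cross-links collagen, overlapped, at 80.8 ± 22.4 and 39.9 ± 13.2 CPM (adjusted p = 0.135).

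Mitosis genes were at low levels, and most lay lower again in the older corneas. All 51 genes of the list were tested, 48 had a difference below 0 (51.9% of all genes), and in 6 the older libraries lay wholly below the younger ones (1.87%). The median log2 difference was -0.65, at -0.59 in the controls and -0.56 in the abraded libraries. The summed level overlapped, at 92.5 to 126 CPM in the younger and 70.8 to 104 CPM in the older libraries. Against the mean of the younger group, the median log2 level was -0.11 to 0.16 in single younger libraries. It was -0.15 in older control library 1 and -0.56 to -0.53 in the other older libraries. None was called in edgeR, where 9 had an unadjusted p under 0.05 downward (3.71% of all genes) and none upward. DESeq2 called 3 lower (0.446%), and voom none, with or without the tank block. The level of these genes was low, 47 of the 51 being under 5 CPM on average in the younger group, so that single values are imprecise. The 6 genes without overlap, chosen after their values were seen, were kif11, anln, TOP2A, kifc1, SMC4 and bub1.

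The gene kif11, for the motor that separates spindle poles, was at 2.45 and 3.55 CPM in the younger controls, 1.71 and 2.56 in the younger abraded libraries, 0.721 and 0.906 in the older controls, and 0.590 and 0.927 in the older abraded libraries (log2 difference -1.69 ± 0.32, adjusted p = 0.0878). TOP2A, for the topoisomerase that untangles chromosomes, was at 4.33, 3.65, 3.23 and 4.47 CPM in the younger and 2.56, 1.25, 1.39 and 1.90 CPM in the older libraries (log2 difference -1.14 ± 0.28, adjusted p = 0.23). The gene anln, for the cytokinesis protein anillin, was at 3.66, 2.91, 3.33 and 5.42 and 1.37, 0.766, 2.08 and 2.23 CPM (adjusted p = 0.16). The proliferation marker mki67 overlapped, at 4.89 ± 1.39 and 3.34 ± 0.723 CPM. Leaving out single libraries moved the median of the list between -0.79 and -0.55, and it was -0.44 between 180 and 145 days and -0.88 between 183 and 148 days.

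DNA replication genes differed less evenly. Of 51 tested, 45 were below 0 (51.9% of all genes). The median was -0.33, but it was -0.06 without younger abraded library 2, and the median was -0.59 between 180 and 145 days and 0.06 between 183 and 148 days. In 1 gene the older libraries lay wholly below (1.87% of all genes), and 4 had an unadjusted p under 0.05 downward (3.71%). Neither edgeR nor DESeq2 called any. PCNA, the sliding clamp of DNA polymerase, was at 40.6, 32.9, 56.3 and 30.1 CPM in the younger and 35.9, 30.3, 37.3 and 35.7 CPM in the older libraries, with overlap.

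Cytokine and chemokine genes lay on the higher side in the older group. The list held ligands and receptors, 114 of 151 being tested. Of these 75 were above 0 (48.1% of all genes), 7 lay wholly above the younger group (2.01%) and none below, and the median was 0.16. Both edgeR and voom with the block called 1 gene, and DESeq2 called 4 higher (0.514%). The gene called in edgeR was ccl27a. Of the others without overlap, chosen after their values were seen, cxcl8b.1, for a neutrophil attractant, was at 23.4 and 25.7 CPM in the younger controls, 26.9 and 28.9 in the younger abraded libraries, 38.5 and 38.5 in the older controls, and 75.4 and 43.5 in the older abraded libraries (log2 difference 0.87 ± 0.19, adjusted p = 0.135). The gene ccl25b, for a chemokine of thymus and gut in mammals, was at 298, 508, 350.0 and 402 CPM in the younger and 548, 540.0, 755 and 527 CPM in the older libraries (log2 difference 0.60 ± 0.18, adjusted p = 0.4). Older abraded library 1 was the highest in both. The gene csf1a, for a growth factor of macrophages and pigment cells, was at 0.709, 0.720, 0.735 and 1.05 and 2.49, 3.30, 1.70 and 1.26 CPM (adjusted p = 0.288). The T and NK cell list had 19 of 22 tested genes above 0 (48.1% of all genes), 3 wholly above the younger group (2.01%) and a median of 0.58, with none called by edgeR or DESeq2, 2 at an unadjusted p under 0.05, and a summed level of 78.6 to 88.4 CPM in the younger and 89.1 to 95.4 CPM in the older libraries. That median was 0.20 without younger abraded library 2, 0.10 in the controls and 0.50 in the abraded libraries.

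Lists of endocrine genes had medians near 0. Of 37 tested genes of thyroid hormone and retinoids 20 were above and 17 below 0 (median 0.04), and 2 lay wholly above the younger group (2.01% of all genes). Of 15 sex hormone and gonad genes 6 were above and 9 below (median -0.11), and 1 lay wholly above. The summed level of the thyroid hormone and retinoid list was 1896 to 2259 CPM in the younger and 2456 to 2935 CPM in the older libraries. That of the sex hormone and gonad list overlapped. Abundant genes weigh most in such a sum. In that of thyroid hormone and retinoids, RBP4 alone made up 1088 to 1411 CPM in the younger and 1639 to 1766 CPM in the older libraries. The genes given next were chosen after their values were seen, for their lack of overlap, and none passed in edgeR. Of these, DIO2 and RBP4 belong to the thyroid hormone and retinoid list and ESR1 to the sex hormone and gonad list. The genes gpha2 and GPHB5 lie outside both lists and are not in the counts above. DESeq2 called DIO2, gpha2 and ESR1 higher (adjusted p = 0.00136, 0.00605 and 0.000791), as it did 0.514% of its genes. It did not call GPHB5 or RBP4 (0.0594 and 0.127). DIO2, for the deiodinase that makes active thyroid hormone, was at 2.68 and 3.48 CPM in the younger controls, 4.11 and 4.63 in the younger abraded libraries, 6.27 and 6.22 in the older controls, and 7.63 and 12.2 in the older abraded libraries (log2 difference 1.1 ± 0.21, adjusted p = 0.0888, and 0.0452 without older abraded library 1). No other fit with a library left out called DIO2, with adjusted p-values up to 0.303. The genes for the subunits of thyrostimulin, a glycoprotein hormone, lay the same way. The alpha subunit gene gpha2 was at 6.50, 3.38, 3.55 and 3.30 CPM in the younger and 7.56, 10.4, 7.23 and 11.8 CPM in the older libraries (log2 difference 1.16 ± 0.27, adjusted p = 0.178), and the beta subunit gene GPHB5 at 39.2, 41.1, 49.4 and 54.4 and 84.6, 57.2, 57.1 and 95.7 CPM (log2 difference 0.69 ± 0.19, adjusted p = 0.32). TSHR, for the receptor that thyrostimulin binds, was under 1 CPM in every library. RBP4, for the carrier of retinol, was abundant and had a small spread, at 1174, 1326, 1411 and 1088 CPM in the younger and 1639, 1766, 1741 and 1749 CPM in the older libraries (log2 difference 0.46 ± 0.12, adjusted p = 0.268). ESR1, an estrogen receptor gene, was at 4.90, 11.8, 8.03 and 9.92 and 20.5, 19, 19.6 and 19 CPM (log2 difference 1.17 ± 0.24, adjusted p = 0.116).

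Of 19 glucocorticoid-responsive genes 18 were above 0 (48.1% of all genes), with a median of 0.26, at 0.52 in the controls and 0.08 in the abraded libraries. The median was 0.16 without younger control library 2 and 0.45 without younger control library 3. None was called by edgeR or DESeq2, 5 having an unadjusted p under 0.05 upward (3.43% of all genes). The kinase gene sgk1 was at 102 and 111 CPM in the younger controls, 194 and 230.0 in the younger abraded libraries, 535 and 179.7 in the older controls, and 200 and 342 in the older abraded libraries, with overlap, and g0s2, for an inhibitor of lipolysis, at 0.847, 2.21, 0.857 and 1.25 CPM in the younger and 4.63, 2.62, 2.31 and 2.95 CPM in the older libraries, without overlap (adjusted p = 0.304).

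The list of epithelial identity genes was balanced between the ages, while most keratins lay below 0. The 60 tested genes of epithelial identity and differentiation had a median of -0.001, with 30 above and 30 below 0. Of 23 keratins 18 were below 0 (51.9% of all genes), with a median of -0.16 that was -0.09 without older abraded library 1. None was called in edgeR, and 3 had an unadjusted p under 0.05 downward (3.71% of all genes). DESeq2 called 1 lower (0.446% of its genes). The abundant krt5 overlapped, at 42802, 41959, 41233 and 37555 CPM in the younger and 41974, 41591, 22546 and 40113 CPM in the older libraries, older abraded library 1 being far lower than the other 7. The gene krt92 was the exception in size, at 70.4, 248, 49.3 and 1.36 CPM in the younger and 3.18, 3.16, 2.5 and 2.78 CPM in the older libraries. It was high in 3 of the 4 younger libraries, while younger abraded library 3 lay below all older ones (log2 difference -4.47 ± 0.91, adjusted p = 0.117).

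Housekeeping families differed by small amounts. The 91 cytosolic ribosomal protein genes had a median of 0.008. Of 102 respiratory chain and ATP synthase genes 82 were above 0 (median 0.14, and 0.08 without older abraded library 1), and of 75 mitochondrial ribosomal protein genes 58 were (median 0.16, and 0.11 without older control library 1). In both lists none was called by edgeR, with 5 and 0 genes at an unadjusted p under 0.05 upward (3.43% of all genes). DESeq2 called 1 and 0 (0.514% of its genes were called higher). The muscle isoform gene cox7a1 was at 2.06, 2.71, 2.62 and 3.78 CPM in the younger and 5.05, 7.78, 8.05 and 4.75 CPM in the older libraries (adjusted p = 0.142), and SDHC, for a subunit of succinate dehydrogenase, at 25.3, 26.0, 25.3 and 26.0 and 32.2, 38.1, 40.7 and 28.3 CPM (adjusted p = 0.516).

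Summed levels of markers of neighbouring tissue overlapped between the ages, while most of the single genes lay above 0. Of 75 tested muscle genes 60 were above 0, and of 58 retina genes 41 were (48.1% of all genes). The summed level of 75 tested muscle genes was 2895 to 4049 CPM in the younger and 3063 to 4892 CPM in the older libraries, with a median log2 difference of 0.33 that was 0.12 without older control library 1, 0.58 without older control library 4, 0.75 between 180 and 145 days and -0.17 between 183 and 148 days. The summed level of 58 retina genes was 6043 to 7664 CPM in the younger and 6823 to 8697 CPM in the older libraries, and their median of 0.22 became -0.22 without older abraded library 1. Neither list had a gene called by edgeR, with 10 and 3 genes at an unadjusted p under 0.05 upward (3.43% of all genes). DESeq2 called 1 gene higher in each (0.514% of its genes).

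**Figure D5:**
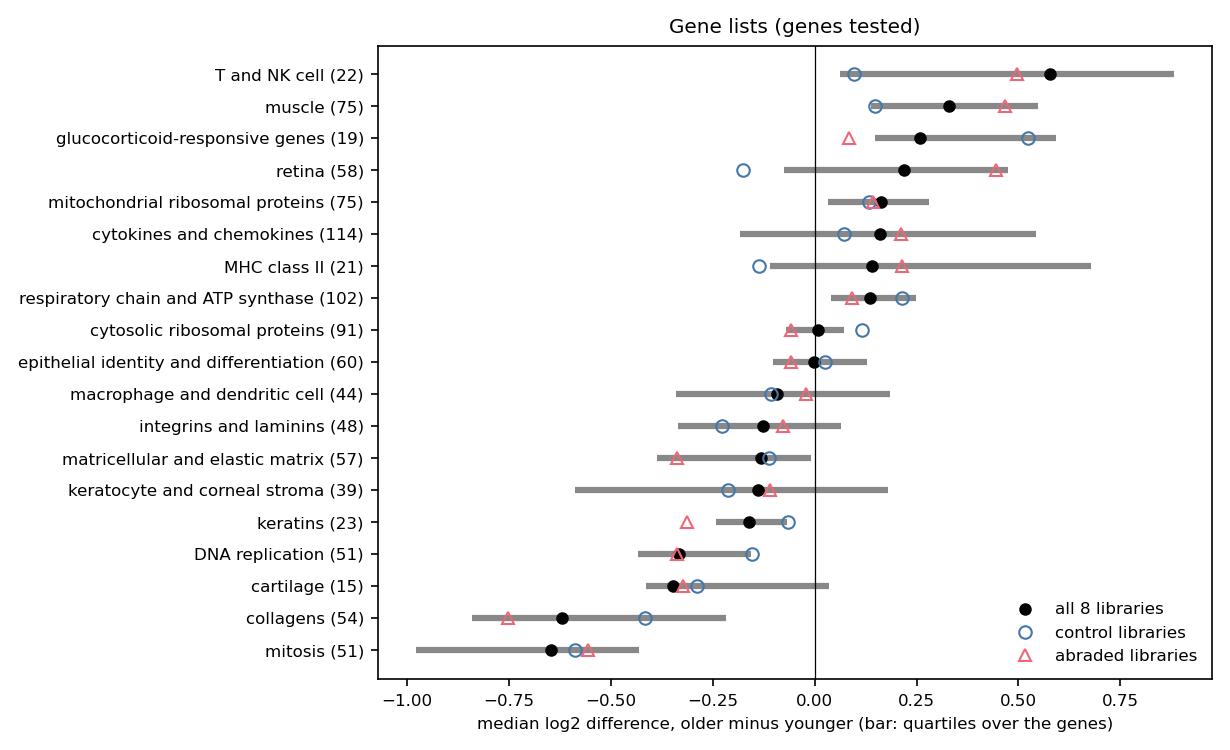
Median differences of 19 gene lists. The horizontal axis is the log2 difference of older minus younger, filled points are medians over the genes tested in all 8 libraries (the number of genes in brackets), grey bars span the quartiles, and open circles and triangles are the medians within the controls and within the abraded libraries. Among the lists plotted, mitosis genes and collagens have the lowest medians over all 8 libraries, at -0.65 and -0.62.

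Whether the age groups responded differently to abrasion was tested with an interaction term, from 2 libraries of each age and condition. No gene passed in edgeR (smallest adjusted p = 0.863), with 390 of 20018 genes at an unadjusted p under 0.05 and none called by DESeq2. For the 17 rises and 8 falls the differences within each condition are therefore given side by side only as values, for CCDC39 -2.14 in the controls and -1.85 in the abraded libraries, for fgfbp2a 1.85 in the controls and 2.58 in the abraded libraries, for ccl27a 1.63 in the controls and 1.32 in the abraded libraries and for COL10A1 (ENSDARG00000101535) -1.01 in the controls and -1.51 in the abraded libraries.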

How the data were processed

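According to the study's methods and the processing notes, libraries were prepared from poly(A) RNA with a kit that marks strand and sequenced from 1 end, base calls came from bcl2fastq 2.20.0.422, reads were trimmed with Trimmomatic (settings not given in the sources used here) and STAR 2.6.0c mapped them to GRCz11. The deposited values are raw counts, without normalization, which the authors obtained with featureCounts on the genes of Ensembl release 97, for 32520 genes in 8 libraries. How featureCounts treated strand is not given in the sources used here, so overlapping antisense genes cannot be told apart, and near-identical copies are uncertain. A symbol was found for 29201 genes in the reference name tables, and copies that share a symbol are named with their identifier.

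Tests were run in R 4.3.3 with edgeR 4.0.16: genes were filtered with filterByExpr on the 4 groups of age and condition, scaled by TMM and fitted by quasi-likelihood with condition and age group, and p-values were adjusted by Benjamini-Hochberg over the 20018 genes left. Other fits used limma 3.58.1 and DESeq2 1.42.0, and plots Python 3.11.15 and matplotlib 3.10.9. Groups came from the age and treatment in the labels. Log2 differences are older minus younger with their SE, and group values are means with the SD between 4 libraries. The p-values take the 8 libraries as replicates. The 2 libraries of each age and condition, from different tanks, differed by more than counting noise (chi-square per gene 42.5 to 130.9). This does not compare libraries of the same tank, so it cannot show that the 8 are independent. Counting intervals are exact and cover counting error only.

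Libraries of the same number came from the same tank according to the study. Their deviations from their group means correlated at 0.152 for each number (with 2 libraries per group these 4 values are 1 value). A fixed tank term leaves no estimate of age, so the tank entered as a random block in limma voom (consensus correlation 0.185).

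The comparison, the lists and the naming rule were chosen with earlier results of these data known. The rule named called genes without overlap, up to 12 in each direction at 1 CPM or more and up to 4 in each list. Genes outside it and a cartilage list were chosen after their values were seen, and 1 called gene is not reported here. Of 1580 symbols written in 57 lists, 1452 were matched, and lists are described by counts and medians. The fit was tested on simulated data, with 200 genes changed. It called 60% of the 2-fold and 95.6% of the 4-fold changes, with 11 false calls among 19489 genes. The simulated libraries were independent, with no tank effect, and only genes with a mean of at least 1 CPM were changed. These rates therefore do not cover differences between tanks or genes at lower levels. Alternatives were DESeq2's test and its size factors, other filters on low counts, each library left out, the tank block, counts summed by tank, the block of index numbers (S1 to S4 or S5 to S8), age in days and single conditions. Other edgeR dispersions, robust shrinkage, list medians within index blocks or without each library, and the stroma list without its collagens were added after the data were seen.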

Additional observations from a re-analysis of the deposited data

Results flagged for a closer look

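The lowest or highest library of each age group was set against the others of its group for 119 genes, the 25 called ones and 94 others, on CPM. A library is given here where its gap to the nearest of the other 3, divided by the range of the 4, exceeded Dixon's 95% critical value for 4 samples. Each of the 119 genes was examined in 2 age groups, leaving out groups with a mean under 1 CPM. Chance flags about 1 in 20 groups, and 13 groups of 4 were found. This is near that rate, so any single flag may be chance.

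Older abraded library 1 was the flagged library in 4 of them. It was at 72.97 CPM for fgfbp2a (the others at 43.45 to 44.84), at 75.45 CPM for cxcl8b.1 (38.46 to 43.5), at 755 CPM for ccl25b (527.4 to 547.7) and at 22550 CPM for krt5 (40110 to 41970). Older control library 4 was at 3.576 CPM for si:ch211-127b6.2 (1.02 to 1.086), at 3.646 CPM for a POSTN copy, ENSDARG00000043806 (11.79 to 12.44), and at 19.11 CPM for the cartilage gene cnmd (59.86 to 65.36). The value of si:ch211-127b6.2 is the highest of a gene that was called in 1 of the 8 fits with a library left out.

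In the younger group, control library 2 was at 6.499 CPM for gpha2 (3.298 to 3.551), at 23.94 CPM for mhc1uba (13.98 to 15.26) and at 863.4 CPM for cd74a (551.1 to 594.6). Control library 3 was at 12.22 CPM for fbxo44.9 (17.24 to 18.1). Abraded library 3 was at 21.02 CPM for acana (12.68 to 14.01), and abraded library 2 at 384.1 CPM for hapln1a (292.1 to 304.7).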

How the results depend on the processing

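Against 17 rises and 8 falls, DESeq2's Wald test called 106 and 92, and edgeR with every gene that had a count called 213 and 177, both including all 25 genes. Requiring at least 10 counts in every library gave 9 rises and 8 falls, which removes genes absent from the younger group. With the tank as a random replicate block in limma voom 4 rose and 3 fell, against 10 and 9 in voom without it. The adjusted p with the block stands beside each call described that did not pass with it. Of the 25 calls, 17 passed in voom without the block and 7 with it. Not all of the loss therefore came with the block. Summing the counts of each tank gave 14 and 5, the index block as a term 17 and 14, the controls alone 7 and 4, and the abraded libraries alone 3 and 0. Leaving out each library in turn gave 8 to 28 rises and 3 to 23 falls, both highest without older abraded library 1, which keeps 23 of the 25 genes. Rises were 9 without younger control library 3 or older abraded library 4, 10 without younger abraded library 2, 8 without younger abraded library 3 and 11 without older control library 4, and falls were 5 without younger control library 2 or 3, 4 without younger abraded library 2 or 3 and 3 without older abraded library 4. DESeq2's size factors, age in days, legacy dispersions and robust shrinkage stayed within 1.5 times of both counts. The interaction had no called gene under its alternatives, except for 37 with every gene that had a count. The cause of these differences was not tested. All 25 genes had the same sign in each of the 20 or 21 alternatives fitted to them, as had 76 of the 94 further genes described. For the 25 genes, the lack of overlap largely fixes this.

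Age group, tank and cohort cannot be told apart with 2 tanks in each group. Each library pooled 3 fish, so a single fish can weigh on a value. The fit called 60% of the 2-fold changes simulated without a tank effect, so 2-fold differences were not all detectable at this depth and number of libraries.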
